A study of Mus musculus with 12 samples.

Results

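Neutrophils from the blood of female mice that carry the Hmgb1ΔMye label were compared 16 hours after LPS with neutrophils after saline. The comparison rests on 6 of the 12 RNA-seq libraries of the study and covers all 9374 genes of its expression table. The group KO-Saline holds 3 libraries of Hmgb1ΔMye mice given saline, and the group KO-LPS holds 3 libraries of Hmgb1ΔMye mice given LPS at 0.5 mg/kg. Both groups were chosen by their labels alone, in which KO stands for Hmgb1ΔMye, a name used for a deletion of Hmgb1 in myeloid cells. The other 6 libraries are of wild-type (WT) mice given saline or the same dose of LPS. No label states which promoter drives the deletion, how old the mice were, or whether each library is from a mouse of its own. The p-values therefore measure the spread among the libraries of a group, which could be of technical origin.

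LPS is a lipid of the outer membrane of Gram-negative bacteria. The LPS-binding protein and CD14 pass it to the receptor TLR4, which signals through one adaptor route to NF-kB and the MAP kinases and through another to the interferon regulatory factors, so that both inflammatory and interferon-stimulated genes are switched on. Blood neutrophils are short-lived cells whose granule proteins are made in a fixed order while the cells mature in the bone marrow. After LPS is given to an animal, the marrow releases neutrophils, including less mature ones, and blood neutrophils leave for the tissues. In bulk samples such as these, fewer cells of a type and less RNA per cell cannot be told apart, so every rise or fall below covers both.

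Depth was low, at 399702 to 526757 reads per library over all genes. A gene of median level had 11.33 reads in each, and the 3 reads that a count of 0 allows came to 5.58 to 8.0 CPM (read counts put on a shared library-size scale). All 20 neutrophil markers were measured, and S100a9, Csf3r and S100a8 ranked 10, 14 and 20 by mean reads in the KO-labelled libraries, while Ly6g ranked 2510. A pair of the 6 libraries stood apart. On the first principal component of all 12 libraries, KO-LPS-1 scored -27.0, beside -31.9, -46.8 and -59.2 in KO-Saline, while KO-LPS-2 and KO-LPS-3 scored 68.6 and 68.3 and the WT-LPS libraries 55.1 to 65.1. Over all genes KO-LPS-1 correlated more closely with the KO-Saline libraries (r = 0.843, 0.851 and 0.819 across genes, which are not independent replicates) than with KO-LPS-2 or KO-LPS-3 (r = 0.786 with each). KO-Saline-3 scored -103.2 on the second component, where the other 11 libraries lay between -6.4 and 32.4, and 19.19% of its genes had 0 reads. The results are therefore also given without KO-LPS-1.

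**Figure D1:**
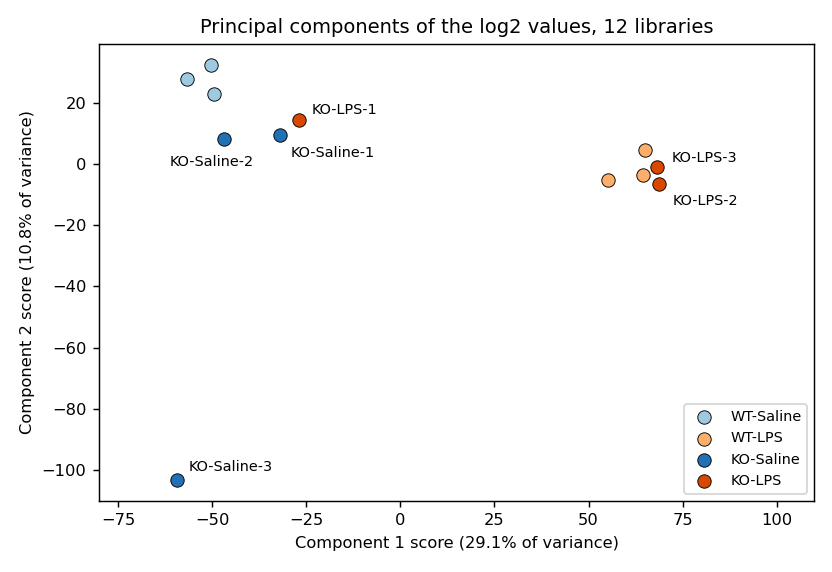
Scores of the 12 libraries on the first and second principal components of the deposited log2 values, as score units, with the share of variance on each axis; points are libraries, coloured by group. KO-LPS-1 lies at -27.0 on component 1 near the saline libraries, KO-LPS-2 and KO-LPS-3 lie at 68.6 and 68.3 with the WT-LPS libraries, and KO-Saline-3 lies at -103.2 on component 2.

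The targeted gene came first. Hmgb1, a chromatin protein (chromosome 5, 149046702 to 149184489, minus strand), had 14, 10 and 25 reads in KO-Saline against 6, 30 and 16 in KO-LPS, and the groups overlapped (log2 difference -0.07 ± 0.57 log2 units (adjusted p = 0.968)). These reads cover the whole gene and its exons overlap those of Uspl1, so they do not check the deletion, and the libraries are called KO-labelled. The library kit marks strand, and the strand setting of the counting is not given. Exons of 36.8% of the matched genes overlap exons on the opposite strand, and where such a gene is named its partner is given and its value is uncertain. Of 218 pairs of a long non-coding RNA and a coding gene that overlap in this way, the non-coding RNA had more reads in 163 (74.8%, 95% exact binomial interval 68.5% to 80.4%). Whether reads were counted on the opposite strand was not tested.

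LPS changed 314 of the 9374 genes in KO-labelled neutrophils at an adjusted p under 0.05 by limma, 3.35% of all genes. The risers numbered 187 (1.99%) and the fallers 127 (1.35%). At least a 2-fold change was fitted for 277 of them. At an unadjusted p under 0.05 limma gave 1612 of the 9374 genes. The libraries of KO-Saline and KO-LPS did not overlap for 1653 genes, 17.6% of all, with LPS higher for 10.8% and lower for 6.87%. With KO-LPS-1 left out, the calls numbered 1076 (11.5%), 560 higher (5.97%) and 516 lower (5.5%), and the groups did not overlap for 39% of genes, 21.5% higher and 17.5% lower. The 39% compares KO-Saline with KO-LPS-2 and KO-LPS-3 alone. Smaller groups fail to overlap more often by chance, so it cannot be set directly against the 17.6%. All 314 genes of the first count were among the 1076 calls, each in the same direction, and 762 were added, 373 higher and 389 lower. The count depended on how the spread was estimated: 82 genes were called when the spread came from the KO-labelled libraries alone and 16 when it was not modelled as a function of the mean level. With each library centred on its median, 308 genes were called, 147 higher and 161 lower, and the median log2 difference of all genes moved from 0.09 to -0.01. Without KO-LPS-1 the same centring gave 1089 genes, 455 higher and 634 lower, so which direction held more genes turned with the scaling in both fits. With all libraries but KO-LPS-2 the count was 32, without KO-LPS-3 it was 47, without KO-Saline-2 it was 129, without KO-Saline-3 it was 108 and without KO-Saline-1 it was 206.

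Of the gene groups, specific granule proteins, acute phase proteins and interferon-stimulated genes held the largest shares of risers with all libraries, among those with at least 12 measured members. Without KO-LPS-1 specific granule proteins again had the largest share, and gelatinase granule genes (5 of 13), interferon-stimulated genes (20 of 52), acute phase proteins (8 of 21) and adhesion molecules (8 of 21) lay close together below it. The median log2 difference of all genes was 0.09, and 0.15 without KO-LPS-1, beside 0.97 and 1.03 for the interferon-stimulated genes and 0.82 and 1.13 for the specific granule proteins. Immediate-early transcription factors had a median of -0.25 with all libraries and -0.87 without KO-LPS-1.

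**Figure D2:**
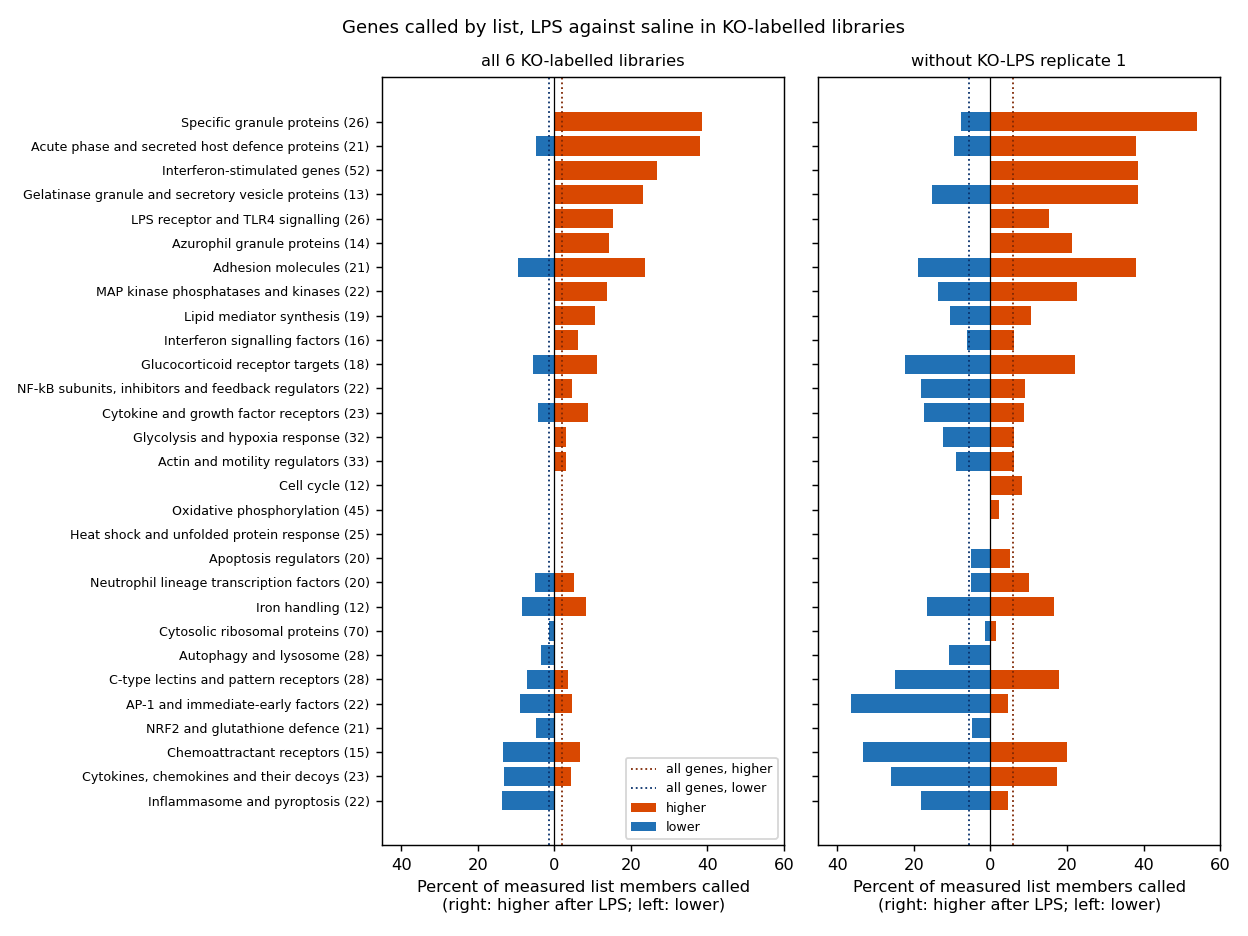
Share of the measured members of each gene list called higher (bars to the right) or lower (bars to the left) after LPS at a limma adjusted p under 0.05, in percent, with the number of measured members in brackets; the left panel uses all 6 KO-labelled libraries and the right panel leaves out KO-LPS-1. Dotted lines mark the share of all genes called, 1.99% higher and 1.35% lower on the left and 5.97% and 5.5% on the right.

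A set of 28 genes was called with all libraries and again without each of the 6 KO-labelled libraries in turn, 18 higher and 10 lower. The interferon-induced Slfn4 (chromosome 11, 83175186 to 83190216, plus strand), a Schlafen gene of myeloid cells, had 919, 1102 and 1202 CPM in KO-Saline against 2979.8, 4091 and 3608 in KO-LPS. All 3 LPS libraries lay above all saline libraries, and the rise was 1.72 ± 0.20 log2 units (adjusted p = 2.66e-05). Nos2 (chromosome 11, 78920787 to 78960254, plus strand), the inducible nitric oxide synthase, had 7, 0 and 0 reads in KO-Saline against 16, 70 and 64 in KO-LPS. Every LPS library exceeded every saline library, KO-LPS-2 and KO-LPS-3 by most, and the rise was 5.11 ± 0.81 log2 units (adjusted p = 0.000845). Lipg, which encodes endothelial lipase, had 2, 5 and 0 reads in KO-Saline against 10, 295 and 357 in KO-LPS and rose by 5.78 ± 0.91 log2 units (adjusted p = 0.000824). Its level in KO-LPS-1 stood above saline but far below the other LPS libraries. The sulfhydryl oxidase gene Qsox1, whose exons overlap Gm37539, had 105, 43.4 and 29.2 CPM in KO-Saline against 136, 654 and 648 in KO-LPS and rose by 2.89 ± 0.47 log2 units (adjusted p = 0.000908). Ecm1, an extracellular matrix protein, had 34.1, 32.5 and 36.5 CPM in KO-Saline against 93.4, 150.5 and 217 in KO-LPS and rose by 2.04 ± 0.33 log2 units (adjusted p = 0.000859). For Ecm1 all 3 LPS libraries lay above saline. The ganglioside-making sialyltransferase St8sia1 rose by 5.12 ± 0.83 log2 units (adjusted p = 0.000845), with an overlap by Gm7457, and the actin-capping protein Capg rose by 2.57 ± 0.46 log2 units (adjusted p = 0.00217). The orphan nuclear receptor Nr4a1 had 13.1, 36.9 and 38.9 CPM in KO-Saline against 88, 229.5 and 193 in KO-LPS and rose by 2.50 ± 0.40 log2 units (adjusted p = 0.000845).

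The set held 10 falls. D630041G03Rik, a gene without an established function, had 144, 332 and 387 CPM in KO-Saline against 48, 27.1 and 27.9 in KO-LPS and fell by 2.95 ± 0.36 log2 units (adjusted p = 2.66e-05). Slc7a11, the cystine and glutamate exchanger that feeds glutathione synthesis, had 220.5, 141 and 170.3 CPM in KO-Saline against 66.7, 14.8 and 17.2 in KO-LPS and fell by 2.70 ± 0.49 log2 units (adjusted p = 0.00263). In both, KO-LPS-1 lay between saline and the other LPS libraries. Ctc1, a component of a telomere-capping complex, had 112, 157 and 118 reads in KO-Saline against 48, 1 and 2 in KO-LPS. Hardly any of its reads were left in KO-LPS-2 and KO-LPS-3, and it fell by 4.49 ± 0.80 log2 units (adjusted p = 0.00213). The ubiquitin ligase gene Hecw2 fell by 1.48 ± 0.27 log2 units (adjusted p = 0.00266). Bcl2l13, a mitochondrial protein gene that overlaps Bid, fell by 1.51 ± 0.28 log2 units (adjusted p = 0.00282). Anks6 fell by 2.94 ± 0.52 log2 units (adjusted p = 0.00211), and Tmem43 fell by 1.72 ± 0.27 log2 units (adjusted p = 0.000824). Gm10684, which overlaps the adhesion gene Jaml, fell by 2.41 ± 0.41 log2 units (adjusted p = 0.00125).

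**Figure D3:**
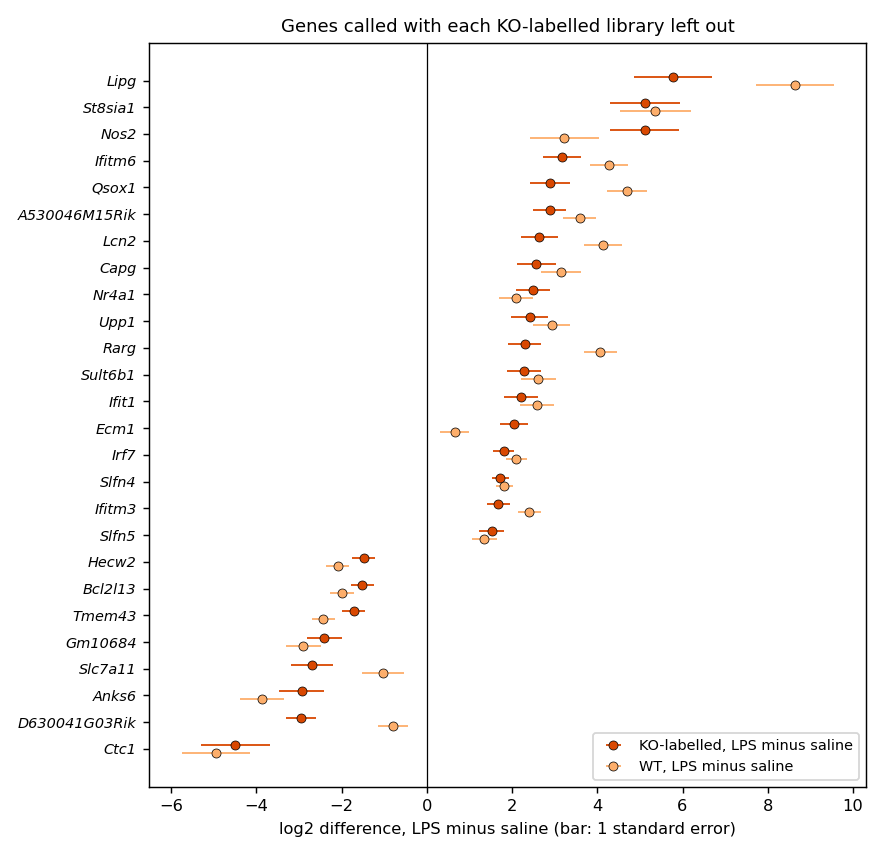
Log2 difference between LPS and saline (x axis) for genes from the set of 28 called without each of the 6 KO-labelled libraries in turn, in KO-labelled (dark) and WT (light) libraries; points are fitted differences and bars 1 standard error. All genes shown point the same way in both genotypes, from Lipg (5.78 in KO-labelled, 8.64 in WT) to Ctc1 (-4.49 and -4.95). Ecm1 (0.65 in WT), Slc7a11 (-1.02 in WT) and D630041G03Rik (-0.79 in WT) were not called in WT.

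Interferon-stimulated genes act downstream of type I and type II interferon and limit virus and intracellular bacteria. Of 52 measured members 14 rose and 24 had LPS libraries all above saline. Without KO-LPS-1 20 rose, and no member was called lower in either fit, nor at an unadjusted p under 0.05 in the first. With 1 library left out in turn, the number called ran from 5 (without KO-LPS-2) to 20 (without KO-LPS-1). The mean log2 value over all 52 members was 5.25, 5.42 and 5.08 in the KO-Saline libraries and 6.24, 6.68 and 6.44 in the KO-LPS libraries, so that all 3 LPS libraries stood above all 3 saline libraries. Irf7, a transcription factor that amplifies the interferon response and the called gene among 16 interferon signalling factors, had 149.6, 132 and 105 CPM in KO-Saline against 339, 488 and 538 in KO-LPS and rose by 1.80 ± 0.25 log2 units (adjusted p = 0.000178). Its exons overlap Phrf1. The membrane protein Ifitm3, which blocks virus entry, had 220.5, 239 and 246 CPM in KO-Saline against 568, 812 and 926 in KO-LPS and rose by 1.68 ± 0.27 log2 units (adjusted p = 0.000845). In both genes KO-LPS-1 was lowest of the LPS libraries and still above every saline library. Ifitm6, a relative expressed in myeloid cells, had 21, 49.9 and 46.2 CPM in KO-Saline against 112, 595 and 581 in KO-LPS and rose by 3.17 ± 0.45 log2 units (adjusted p = 0.000178).

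The IFIT proteins bind viral RNA. Ifit1 had 47.2, 80.3 and 17 CPM in KO-Saline against 181, 289 and 133 in KO-LPS and rose by 2.21 ± 0.40 log2 units (adjusted p = 0.00217). Ifit3 had 36.7, 45.6 and 14.6 CPM in KO-Saline against 157, 131 and 107 in KO-LPS and rose by 2.11 ± 0.44 log2 units (adjusted p = 0.00697). Ifit2 had 1, 5 and 0 reads in KO-Saline against 22, 37 and 22 in KO-LPS and rose by 4.07 ± 0.76 log2 units (adjusted p = 0.00309). In none of the 3 did the groups overlap, and in Ifit3 KO-LPS-1 was the highest library. Zbp1, a sensor of Z-form nucleic acid, had 44.6, 15.2 and 9.73 CPM in KO-Saline against 72, 199.8 and 105 in KO-LPS and rose by 2.53 ± 0.51 log2 units (adjusted p = 0.0048). Gbp2, a guanylate-binding protein that attacks vacuoles of microbes, had 23.6, 65.1 and 58.4 CPM in KO-Saline against 179, 141 and 178 in KO-LPS and rose by 1.85 ± 0.42 log2 units (adjusted p = 0.0109). In both the groups did not overlap. The Schlafen gene Slfn5, which overlaps Slfn5os, rose by 1.52 ± 0.29 log2 units (adjusted p = 0.00368). Oas3, which senses double-stranded RNA, rose by 0.74 ± 0.20 log2 units (adjusted p = 0.0378). Ifi204, a DNA sensor, rose by 1.60 ± 0.41 log2 units (adjusted p = 0.0272), and Parp9, which overlaps Dtx3l, rose by 0.99 ± 0.22 log2 units (adjusted p = 0.011). Ifit1bl1, an IFIT relative, had 1, 1 and 0 reads in KO-Saline against 11, 11 and 5 in KO-LPS, and Lgals3bp, a secreted glycoprotein, 0, 1 and 0 reads in KO-Saline against 2, 20 and 17 in KO-LPS. The calls of Ifit1, Slfn5, Irf7, Ifitm3 and Ifitm6 held without each of the 6 libraries in turn. Ifit2 and Zbp1 were no longer called without KO-LPS-2 (adjusted p up to 0.0883). Ifi204 and Lgals3bp were no longer called without KO-Saline-1, KO-Saline-3, KO-LPS-2 or KO-LPS-3 (adjusted p up to 0.242). Ifit3 was no longer called without KO-Saline-3 or KO-LPS-2 (adjusted p up to 0.0609). Gbp2 was no longer called without KO-Saline-1, KO-LPS-2 or KO-LPS-3 (adjusted p up to 0.0797). Oas3 lost the call when any library other than KO-LPS-1 was left out (adjusted p up to 0.193). Parp9 was no longer called without KO-Saline-2 or KO-LPS-2 (adjusted p up to 0.137). Ifit1bl1 was no longer called without KO-Saline-2, KO-Saline-3, KO-LPS-2 or KO-LPS-3 (adjusted p up to 0.205).

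The promoters of these risers are shown because several carry the sequence through which interferon factors are known to act, the interferon-stimulated response element. Its core, GAAA, any 2 bases and GAAA again, was searched on both strands of the 250 bases before the start of each gene in RefSeq promoters of build GRCm38.p6. Of the 14 called interferon-stimulated genes 11 had a promoter in the table and 6 of these held the core (54.5%). Among all risers with a promoter 13 of 159 held it (8.18%), among all fallers 1 of 96 (1.04%), and 3.46% of all 27025 RefSeq promoters and 3.41% of those of all measured genes did so. Without KO-LPS-1 the core was held by 26 of 455 (5.71%) risers and 13 of 406 (3.2%) fallers, the latter near the share of all measured genes. A match describes letters and is not a site of binding. The stretches below run 5′ to 3′ on the strand of the gene, with the core in capitals.
Ifit1, chr19:34640745-34640834, plus strand: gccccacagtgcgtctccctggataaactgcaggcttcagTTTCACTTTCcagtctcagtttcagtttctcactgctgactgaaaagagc
Ifit3, chr19:34583333-34583422, plus strand: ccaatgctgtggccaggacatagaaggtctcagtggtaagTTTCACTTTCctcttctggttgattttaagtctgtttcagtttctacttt
Ifit1bl1, chr19:34602023-34602112, minus strand: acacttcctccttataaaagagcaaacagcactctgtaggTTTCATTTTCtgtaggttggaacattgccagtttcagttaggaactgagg
Gbp2, chr3:142620564-142620653, plus strand: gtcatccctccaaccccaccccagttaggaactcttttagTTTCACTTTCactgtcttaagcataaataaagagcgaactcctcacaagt
Oas3, chr5:120777685-120777774, minus strand: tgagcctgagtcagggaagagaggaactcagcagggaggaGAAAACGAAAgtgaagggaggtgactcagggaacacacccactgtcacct
Slfn5, chr11:82951907-82951996, plus strand: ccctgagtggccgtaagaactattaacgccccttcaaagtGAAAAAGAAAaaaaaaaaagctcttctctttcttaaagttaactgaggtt

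In Ifit1, Ifit3, Gbp2 and Ifit1bl1 the core lies on the strand opposite to the gene, and in Oas3 and Slfn5 on the same strand. The stretches of Ifit1, Ifit3 and Gbp2 carry the same letters, TTTCACTTTC. A further match, in lower case, follows the first in Ifit1 and in Ifit3.

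**Figure D4:**
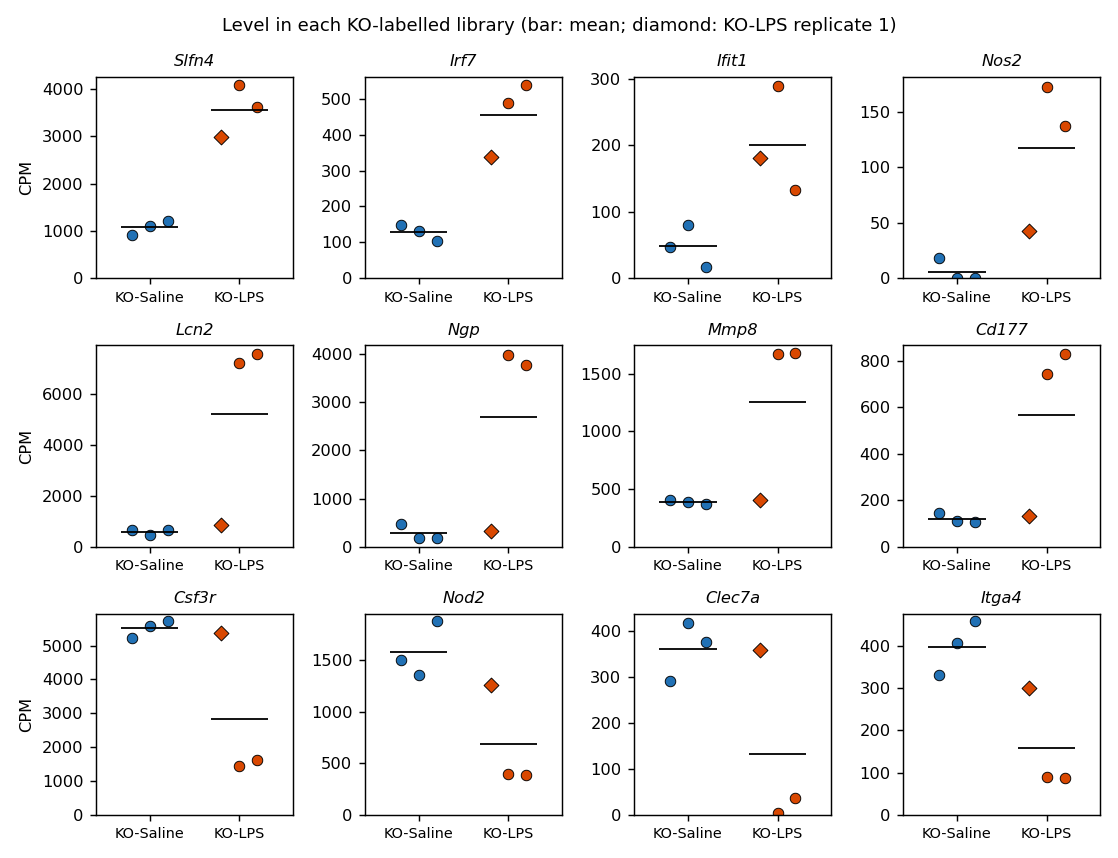
Level of 12 genes in each KO-labelled library, in CPM on axes that start at 0; points are libraries, bars are group means and the diamond is KO-LPS-1. For Slfn4, Irf7 and Ifit1 the diamond lies above all saline libraries, for Lcn2 and Ngp it lies near saline while KO-LPS-2 and KO-LPS-3 are far above, and for Csf3r and Clec7a it lies among the saline libraries while the other LPS libraries are far below.

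Specific granules are the second class of neutrophil granule to form in the marrow, and their proteins bind iron carriers, digest matrix and kill bacteria. Of 26 measured members 10 rose. Without KO-LPS-1 14 rose and 2 fell, Slpi and Adam8. With 1 library left out in turn, the number called ran from 1 (without KO-LPS-2 or KO-LPS-3) to 16 (without KO-LPS-1). The mean log2 value over all members was 6.48, 6.32 and 5.92 in the KO-Saline libraries and 6.65, 8.07 and 7.72 in the KO-LPS libraries, with KO-LPS-1 just above saline. Lcn2 (chromosome 2, 32384633 to 32388252, minus strand), which binds bacterial siderophores, had 667, 451 and 647 CPM in KO-Saline against 867, 7236 and 7569 in KO-LPS. KO-LPS-1 was barely above the saline libraries and the other LPS libraries were far higher. The rise was 2.64 ± 0.44 log2 units (adjusted p = 0.00125), and 3.67 ± 0.20 (adjusted p = 1.14e-16) without KO-LPS-1. Ngp, the neutrophilic granule protein, had 469.8, 174 and 175 CPM in KO-Saline against 323, 3994 and 3769 in KO-LPS. The groups overlapped, since KO-LPS-1 lay within saline, and the rise was 2.80 ± 0.55 log2 units (adjusted p = 0.0046), and 3.99 ± 0.30 (adjusted p = 1.79e-12) without that library. Chil3, a chitinase-like protein, had 2, 2 and 3 reads in KO-Saline against 5, 656 and 592 in KO-LPS and rose by 5.53 ± 1.05 log2 units (adjusted p = 0.00368), and by 7.74 ± 0.65 (adjusted p = 2.82e-11) without KO-LPS-1.

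The neutrophil collagenase gene Mmp8 had 407, 388 and 372 CPM in KO-Saline against 400.2, 1673 and 1681 in KO-LPS and rose by 1.42 ± 0.34 log2 units (adjusted p = 0.016). Cd177, a surface protein that partners with integrin on neutrophils, had 144, 108 and 105 CPM in KO-Saline against 131, 743 and 829.8 in KO-LPS and rose by 1.86 ± 0.41 log2 units (adjusted p = 0.00984). In both, KO-LPS-1 lay among the saline libraries. Abca13, a lipid transporter, had 11, 6 and 12 reads in KO-Saline against 11, 139 and 175 in KO-LPS and rose by 2.75 ± 0.63 log2 units (adjusted p = 0.012), and Pglyrp1, which binds peptidoglycan, had 475, 423 and 469 CPM in KO-Saline against 515, 1214 and 1203 in KO-LPS and rose by 1.0 ± 0.27 log2 units (adjusted p = 0.0346). The integrin subunit Itgb2l rose by 4.15 ± 0.86 log2 units (adjusted p = 0.00629). B2m, the light chain of MHC class I, had 690.3, 839.7 and 535 CPM in KO-Saline against 1056, 1347 and 1664 in KO-LPS and rose by 0.98 ± 0.22 log2 units (adjusted p = 0.0112), and here all LPS libraries exceeded saline. The call of Lcn2 held without each of the 6 libraries in turn. Ngp, Itgb2l and B2m were no longer called without KO-Saline-3, KO-LPS-2 or KO-LPS-3 (adjusted p up to 0.124). Mmp8 and Pglyrp1 lost the call when any library other than KO-LPS-1 was left out (adjusted p up to 0.265). Chil3 was no longer called without KO-LPS-2 or KO-LPS-3 (adjusted p up to 0.0721). Cd177 was no longer called without KO-Saline-2, KO-Saline-3, KO-LPS-2 or KO-LPS-3 (adjusted p up to 0.139). Abca13 was no longer called without KO-Saline-2, KO-LPS-2 or KO-LPS-3 (adjusted p up to 0.17). Ngp and Chil3 are also among the 11 measured markers of immature granulocytes, whose summed level was 2003, 1839.9 and 2058 CPM in KO-Saline against 2324, 8413 and 7409.9 in KO-LPS. A single marker, Mki67, made up most of that sum in each saline library and in KO-LPS-1. With all libraries limma called Chil3 and Ngp higher among these markers, 5 of which were higher at an unadjusted p under 0.05. Without KO-LPS-1 it called 4 higher, Chil3, Ngp, Serpinb1a and Mki67, and the median log2 difference of the list was 1.89, against 1.0 with all libraries. The part of less mature cells in the granule genes was not tested.

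Acute phase and secreted defence proteins overlap with the granule list in Lcn2, Chil3 and Pglyrp1. Of 21 measured members 8 rose and 1 fell. With 1 library left out in turn, the number called ran from 2 (without KO-LPS-2 or KO-LPS-3) to 10 (without KO-LPS-1). Saa3, a serum amyloid protein, had 0, 0 and 0 reads in KO-Saline against 0, 92 and 72 in KO-LPS. KO-LPS-1 and all saline libraries held 0 reads, and over the group it was at least 17.6-fold higher against the floor of 3 reads per library (adjusted p = 0.0308). C3, the central complement component, had 129, 119 and 80.3 CPM in KO-Saline against 128, 797 and 607 in KO-LPS and rose by 1.87 ± 0.40 log2 units (adjusted p = 0.0073), with KO-LPS-1 inside the saline range. Prok2, a prokineticin, had 20, 0 and 5 reads in KO-Saline against 19, 114 and 86 in KO-LPS and rose by 3.92 ± 0.97 log2 units (adjusted p = 0.0209). Wfdc21, a small secreted protein of neutrophils, had 160.1, 106 and 60.8 CPM in KO-Saline against 197, 269 and 247 in KO-LPS and rose by 1.21 ± 0.34 log2 units (adjusted p = 0.0445). Fgl2, a membrane-bound prothrombinase, was the faller, with 462, 562 and 523 CPM in KO-Saline against 459, 37 and 40.7 in KO-LPS. KO-LPS-1 was just below the saline range, and Fgl2 fell by 2.51 ± 0.51 log2 units (adjusted p = 0.0052). The call of Lipg held without each of the 6 libraries in turn. Prok2 and Wfdc21 were no longer called without KO-Saline-2, KO-Saline-3, KO-LPS-2 or KO-LPS-3 (adjusted p up to 0.256). Saa3 lost the call when any library other than KO-LPS-1 was left out (adjusted p up to 0.295). C3 was no longer called without KO-Saline-3, KO-LPS-2 or KO-LPS-3 (adjusted p up to 0.123). Fgl2 was no longer called without KO-LPS-2 or KO-LPS-3 (adjusted p up to 0.0829).

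Azurophil granules hold proteases, gelatinase granules hold matrix enzymes and receptors, and the NADPH oxidase makes superoxide. Of 14 measured azurophil genes 2 rose. Ctsc, the protease that activates granule serine proteases, had 0, 0 and 0 reads in KO-Saline against 9, 15 and 12 in KO-LPS and was at least 4.0-fold higher against the floor (adjusted p = 0.0091), and Ctsb, a lysosomal protease whose exons overlap Fdft1, had 73.5, 67.3 and 85.1 CPM in KO-Saline against 136, 387 and 313 in KO-LPS and rose by 1.75 ± 0.35 log2 units (adjusted p = 0.00478). In both all LPS libraries lay above saline. Of 13 gelatinase granule and secretory vesicle genes 3 rose. They were Fpr2, Itgam and Mmp25, a membrane-anchored matrix protease that rose by 1.49 ± 0.29 log2 units (adjusted p = 0.00468). Without KO-LPS-1 5 rose, Fpr2, Mmp25, Fpr1, Itgam and Mmp9, and 2 fell, Vnn3 and Adam8. Among 9 oxidase genes Cybb, the catalytic subunit, rose, with 8, 3 and 13 reads in KO-Saline against 19, 65 and 56 in KO-LPS and a rise of 2.51 ± 0.54 log2 units (adjusted p = 0.00849). Without KO-LPS-1 4 oxidase genes rose, Cybb, Ncf1, Ncf4 and Cyba, and the proton channel gene Hvcn1 fell. Ctsc and Ctsb were no longer called without KO-LPS-2 or KO-LPS-3 (adjusted p up to 0.0846). Mmp25 was no longer called without KO-LPS-2 (adjusted p up to 0.0684). Cybb was no longer called without KO-Saline-2, KO-LPS-2 or KO-LPS-3 (adjusted p up to 0.121). S100a8 and S100a9, the subunits of calprotectin, were not called. S100a8 had 3052, 2922 and 2673 CPM in KO-Saline against 4044, 3876 and 4106 in KO-LPS, a difference of 0.48 ± 0.20 log2 units (adjusted p = 0.216), and S100a9 had 5709, 5381 and 5229 CPM in KO-Saline against 7328, 6639 and 6640.2 in KO-LPS, a difference of 0.34 ± 0.20 log2 units (adjusted p = 0.423), and in both the LPS libraries all lay above saline.

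Among 26 genes of the LPS receptor and TLR4 signalling 4 rose. Cd14, the co-receptor that hands LPS to TLR4, had 378, 174 and 102 CPM in KO-Saline against 398, 592 and 678 in KO-LPS and rose by 1.52 ± 0.33 log2 units (adjusted p = 0.00814), with KO-LPS-1 just above the highest saline library. Lbp, the carrier of LPS, had 2, 0 and 0 reads in KO-Saline against 6, 8 and 15 in KO-LPS, a pooled ratio of 14.6 (95% counting interval 3.69 to 126), with an adjusted p = 0.0445 by limma. Irak3, a brake on the receptor's kinases whose exons overlap Tmbim4, had 108, 145 and 129 CPM in KO-Saline against 131, 417 and 491 in KO-LPS and rose by 1.24 ± 0.35 log2 units (adjusted p = 0.0488), its groups overlapping. Ikbke, a kinase that activates interferon regulatory factors, overlaps Gm28914 and had 2, 0 and 0 reads in KO-Saline against 0, 286 and 318 in KO-LPS. Hardly any of its reads came from the saline libraries or KO-LPS-1, and the pooled level was higher in KO-LPS by a ratio of 304 (95% counting interval 83.7 to 2512), with an adjusted p = 0.0223 by limma. Of 22 NF-kB subunits and inhibitors 1 rose, Tnip1, an inhibitor of NF-kB signalling, with 52.5, 62.9 and 65.7 CPM in KO-Saline against 77.4, 405 and 446 in KO-LPS and a rise of 1.98 ± 0.42 log2 units (adjusted p = 0.0073). In that fit 3.35% of all genes were called, near the share of this list. Without KO-LPS-1, where 11.5% of all genes were called, 2 rose, Tnip1 and Zc3h12a, and 4 fell, Nfkbid, Zfp36, Tnfaip2 and Socs3. Of these Zfp36, which destabilises cytokine mRNAs and overlaps Gm44710, then fell by 1.32 ± 0.19 (adjusted p = 3.96e-06). Cd14, Lbp and Ikbke were no longer called without KO-Saline-2, KO-Saline-3, KO-LPS-2 or KO-LPS-3 (adjusted p up to 0.27). Irak3 lost the call when any library other than KO-LPS-1 was left out (adjusted p up to 0.337). Tnip1 was no longer called without KO-LPS-2 or KO-LPS-3 (adjusted p up to 0.108).

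Receptors for growth factors and chemoattractants moved in both directions. Csf3r (chromosome 4, 126024550 to 126044440, plus strand), the receptor of G-CSF that governs neutrophil output, had 5223, 5578 and 5730.2 CPM in KO-Saline against 5386, 1431 and 1634 in KO-LPS. KO-LPS-1 lay among the saline libraries and the other LPS libraries far below them, and the fall was 1.24 ± 0.30 log2 units (adjusted p = 0.0176), or 1.85 ± 0.17 (adjusted p = 1.74e-10) without KO-LPS-1. Il1r2, the decoy receptor of interleukin-1, had 339, 180.1 and 168 CPM in KO-Saline against 315, 817 and 877 in KO-LPS and rose by 1.48 ± 0.32 log2 units (adjusted p = 0.0091). Il4ra, which overlaps Gm44876, rose by 0.96 ± 0.27 log2 units (adjusted p = 0.0405). These were the called genes of 23 cytokine receptors, and without KO-LPS-1 Tgfbr2, Ifngr2 and Csf1r were also called lower. Of 15 chemoattractant receptors Fpr2, a receptor of formyl peptides, rose, with 126, 84.6 and 102 CPM in KO-Saline against 125, 540.3 and 435 in KO-LPS and a rise of 1.58 ± 0.37 log2 units (adjusted p = 0.0144). Cxcr4, which retains neutrophils in the marrow, fell, with 259.8, 304 and 229 CPM in KO-Saline against 267, 39.5 and 75 in KO-LPS and a fall of 1.49 ± 0.40 log2 units (adjusted p = 0.0359). KO-LPS-1 was inside the saline range in both. Hcar2, the niacin receptor, had 24, 36 and 20 reads in KO-Saline against 14, 1 and 2 in KO-LPS and fell by 2.79 ± 0.67 log2 units (adjusted p = 0.0169). Without KO-LPS-1 3 of these receptors rose, Fpr2, Ltb4r1 and Fpr1, and 5 fell, Cxcr1, Hcar2, Cxcr4, C5ar2 and Ccr1. Csf3r, Cxcr4 and Hcar2 lost the call when any library other than KO-LPS-1 was left out (adjusted p up to 0.342). Il1r2, Il4ra and Fpr2 were no longer called without KO-Saline-2, KO-Saline-3, KO-LPS-2 or KO-LPS-3 (adjusted p up to 0.246).

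Of 21 adhesion molecules 5 rose and 2 fell, Cd177 and Itgb2l of the granule genes among the risers. Without KO-LPS-1 8 rose and 4 fell, the fallers being Itgax, Jaml, Itga4 and Cd44. With 1 library left out in turn, the number called ran from 0 (without KO-LPS-2 or KO-LPS-3) to 12 (without KO-LPS-1). Itgam, the alpha chain of the main neutrophil integrin, had 926, 903 and 861 CPM in KO-Saline against 960.4, 1947 and 2148 in KO-LPS and rose by 0.83 ± 0.23 log2 units (adjusted p = 0.044). Ceacam1, a carcinoembryonic antigen family receptor, had 10, 13 and 17 reads in KO-Saline against 16, 67 and 85 in KO-LPS and rose by 1.76 ± 0.45 log2 units (adjusted p = 0.0245), and Fermt3, an activator of integrins that overlaps Trpt1, rose by 1.0 ± 0.28 log2 units (adjusted p = 0.0388). Itga4, the integrin chain that binds vascular adhesion molecule and overlaps Cerkl, had 331, 406 and 457 CPM in KO-Saline against 299, 88.8 and 87.9 in KO-LPS and fell by 1.56 ± 0.33 log2 units (adjusted p = 0.00732). Jaml, an adhesion molecule that overlaps Gm10684, had 207, 276 and 282 CPM in KO-Saline against 176, 19.7 and 19.3 in KO-LPS and fell by 2.58 ± 0.51 log2 units (adjusted p = 0.00468). In both fallers KO-LPS-1 was the highest of the LPS libraries and below all saline libraries. Itgam, Ceacam1 and Fermt3 lost the call when any library other than KO-LPS-1 was left out (adjusted p up to 0.314). Itga4 was no longer called without KO-Saline-3, KO-LPS-2 or KO-LPS-3 (adjusted p up to 0.0981). Jaml was no longer called without KO-LPS-2 or KO-LPS-3 (adjusted p up to 0.0684).

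Of 23 cytokines, chemokines and decoys 1 rose and 3 fell. Without KO-LPS-1 4 rose, Il10, Cxcl1, Ccl3 and Il1rn, and 6 fell. With 1 library left out in turn, the number called ran from 0 (without KO-LPS-2) to 10 (without KO-LPS-1). Cxcl1, which draws neutrophils through Cxcr2, had 0, 0 and 0 reads in KO-Saline against 1, 13 and 21 in KO-LPS and was at least 3.68-fold higher against the floor of 3 reads per library (adjusted p = 0.0276). Its promoter is shown because it holds a kappaB motif, GGGA, any 3 bases and TCC on either strand, the kind of sequence that NF-kB binds. Of the risers with a promoter 10 of 159 held that motif (6.29%), of the fallers 9 of 96 (9.38%), of all RefSeq promoters 4.41% and of those of all measured genes 5.38%. Without KO-LPS-1 the motif was held by 20 of 455 (4.4%) risers and 23 of 406 (5.67%) fallers, both near those shares.
Cxcl1, chr5:90891134-90891223, plus strand: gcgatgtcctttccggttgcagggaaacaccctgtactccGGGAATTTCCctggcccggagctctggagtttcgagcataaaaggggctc

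Ccl6, a chemokine of myeloid cells, had 837, 816 and 798 CPM in KO-Saline against 549.5, 86.4 and 146 in KO-LPS and fell by 2.09 ± 0.39 log2 units (adjusted p = 0.00282). Tnfsf14, a TNF family ligand, had 165, 119 and 151 CPM in KO-Saline against 77.4, 19.7 and 32.2 in KO-LPS and fell by 1.93 ± 0.42 log2 units (adjusted p = 0.0091), and Csf1, the growth factor of macrophages, had 184, 208 and 202 CPM in KO-Saline against 144, 37 and 47.2 in KO-LPS and fell by 1.62 ± 0.37 log2 units (adjusted p = 0.011). In these 3 fallers no LPS library reached the saline range, and KO-LPS-1 was the highest of them. Il10, an anti-inflammatory cytokine, had 0, 4 and 4 reads in KO-Saline against 2, 87 and 75 in KO-LPS. It was called without KO-LPS-1, at 5.17 ± 0.90 (adjusted p = 5.87e-05), and not with it, at 3.57 ± 1.05 log2 units (adjusted p = 0.0567). Il1b, which overlaps Il1bos, had 811, 1031 and 1292 CPM in KO-Saline against 1731, 215 and 339 in KO-LPS. KO-LPS-1 had the highest level of the 6 libraries, the other LPS libraries the lowest, and the difference was -1.03 ± 0.42 log2 units (adjusted p = 0.188) with it and -1.92 ± 0.23 (adjusted p = 1.14e-07) without it. Cxcl1 lost the call when any library other than KO-LPS-1 was left out (adjusted p up to 0.24). Ccl6 was no longer called without KO-LPS-2 (adjusted p up to 0.0519). Tnfsf14 was no longer called without KO-Saline-3, KO-LPS-2 or KO-LPS-3 (adjusted p up to 0.118). Csf1 was no longer called without KO-Saline-2, KO-Saline-3, KO-LPS-2 or KO-LPS-3 (adjusted p up to 0.145).

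Among sensors of microbial products and danger signals some fell. Of 22 inflammasome and pyroptosis genes 3 fell, which were Nod2, Nlrp3 and Nlrp12. Without KO-LPS-1 Il1b was a further faller and Naip2 a riser of that list. Nod2 (chromosome 8, 88647315 to 88688474, plus strand), a sensor of bacterial muramyl dipeptide, had 1504, 1354 and 1880.1 CPM in KO-Saline against 1264, 399.7 and 388 in KO-LPS and fell by 1.43 ± 0.30 log2 units (adjusted p = 0.0073). Nlrp3, the inflammasome sensor that matures interleukin-1, had 331, 267 and 445 CPM in KO-Saline against 312, 49.3 and 57.9 in KO-LPS and fell by 1.80 ± 0.41 log2 units (adjusted p = 0.011). Nlrp12, which overlaps Mir294, had 388, 514 and 311 CPM in KO-Saline against 291, 133 and 161 in KO-LPS and fell by 1.10 ± 0.28 log2 units (adjusted p = 0.0223). For Nod2 and Nlrp12 every LPS library lay below every saline library, and for Nlrp3 the level in KO-LPS-1 was inside the saline range. Among 28 C-type lectins and pattern receptors 2 fell and 1 rose. Clec7a, the receptor of fungal beta-glucan, had 291, 417 and 375 CPM in KO-Saline against 358, 4.93 and 36.4 in KO-LPS and fell by 3.04 ± 0.72 log2 units (adjusted p = 0.0154). KO-LPS-1 lay within the saline range, far above the other LPS libraries. Cd300ld, a receptor of the CMRF35 family, fell by 1.32 ± 0.37 log2 units (adjusted p = 0.0447). Fcgr4, an activating receptor of IgG, had 22, 22 and 34 reads in KO-Saline against 47, 95 and 122 in KO-LPS and rose by 1.67 ± 0.35 log2 units (adjusted p = 0.00677). Without KO-LPS-1 7 of these receptors fell and 5 rose, Fcgr2b, Clec4a1, Fcgr4, Fcer1g and Pirb. Nod2 and Nlrp3 were no longer called without KO-Saline-3, KO-LPS-2 or KO-LPS-3 (adjusted p up to 0.154). Nlrp12 was no longer called without KO-Saline-1, KO-Saline-2, KO-LPS-2 or KO-LPS-3 (adjusted p up to 0.204). Clec7a was no longer called without KO-Saline-2, KO-Saline-3, KO-LPS-2 or KO-LPS-3 (adjusted p up to 0.192). Cd300ld lost the call when any library other than KO-LPS-1 was left out (adjusted p up to 0.314). Fcgr4 was no longer called without KO-Saline-2, KO-LPS-2 or KO-LPS-3 (adjusted p up to 0.0796).

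AP-1 and immediate-early factors are switched on within minutes of a stimulus. Of 22 measured members 1 rose, Nr4a1, and 2 fell, Jund and Ier5, while 8 fell without KO-LPS-1. With 1 library left out in turn, 9 were called without KO-LPS-1 and 1 without any other one. The mean log2 value over all members was 6.57, 6.74 and 6.46 in the KO-Saline libraries and 7.06, 5.81 and 5.76 in the KO-LPS libraries, so that KO-LPS-1 had the highest mean of the 6 libraries and the other LPS libraries the lowest. Fos, the partner of Jun in AP-1, had 701, 864 and 1146 CPM in KO-Saline against 1529, 61.7 and 169 in KO-LPS. The difference was -1.80 ± 0.59 log2 units (adjusted p = 0.0969) with all libraries and -3.10 ± 0.33 (adjusted p = 5.3e-09) without KO-LPS-1. Junb, which overlaps Prdx2, had 900.3, 955 and 844 CPM in KO-Saline against 1134, 313 and 324 in KO-LPS, with a difference of -0.88 ± 0.31 log2 units (adjusted p = 0.117) and of -1.49 ± 0.20 (adjusted p = 4.15e-07) without KO-LPS-1. Jund, which overlaps Gm11175, fell by 0.80 ± 0.23 log2 units (adjusted p = 0.0499) and Ier5 by 1.32 ± 0.36 log2 units (adjusted p = 0.0398). The call of Nr4a1 held without each of the 6 libraries in turn. Jund and Ier5 lost the call when any library other than KO-LPS-1 was left out (adjusted p up to 0.342).

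Of 22 MAP kinase phosphatases and kinases 3 rose. The phosphatase gene Dusp2 had 1, 0 and 0 reads in KO-Saline against 5, 16 and 19 in KO-LPS, and its saline libraries held at most 1 read. Dusp16 had 41, 17 and 20 reads in KO-Saline against 30, 127 and 204 in KO-LPS and rose by 1.92 ± 0.43 log2 units (adjusted p = 0.0109), and the kinase gene Mapk13 had 32, 20 and 20 reads in KO-Saline against 43, 77 and 105 in KO-LPS and rose by 1.58 ± 0.34 log2 units (adjusted p = 0.00747). Without KO-LPS-1 5 rose, adding Map4k4 and Map2k1, and 3 fell, Map3k5, Dusp6 and Dusp1. Of 18 glucocorticoid receptor targets 2 rose, Klf9 (3, 0 and 0 reads in KO-Saline against 6, 22 and 29 in KO-LPS) and Il1r2, and 1 fell, the transcription factor Cebpd, with 543, 558 and 484 CPM in KO-Saline against 456, 215 and 154 in KO-LPS, an overlap by Spidr and a fall of 1.09 ± 0.28 log2 units (adjusted p = 0.0265). Without KO-LPS-1 4 of these targets rose, Klf9, Il1r2, Fkbp5 and Anxa1, and 4 fell, Cebpd, Zfp36, Txnip and Dusp1. Id2, which holds back basic helix-loop-helix factors, had 28, 4 and 1 reads in KO-Saline against 20, 99 and 143 in KO-LPS and rose by 3.53 ± 0.78 log2 units (adjusted p = 0.00984). Slc40a1, the iron exporter ferroportin, had 419.9, 401 and 449.9 CPM in KO-Saline against 334, 76.5 and 122 in KO-LPS and fell by 1.53 ± 0.34 log2 units (adjusted p = 0.00932). Alox5ap, which presents arachidonate to the leukotriene-making lipoxygenase and overlaps Gm19719, had 396, 390.5 and 275 CPM in KO-Saline against 534, 851 and 948 in KO-LPS and rose by 1.11 ± 0.24 log2 units (adjusted p = 0.00918). The glycolytic isomerase gene Gpi1, which overlaps Gm26762, rose by 0.98 ± 0.26 log2 units (adjusted p = 0.0287), and Atg7, the enzyme that activates autophagy conjugation, fell by 1.01 ± 0.24 log2 units (adjusted p = 0.0163). Gpi1 was the only call of 32 glycolysis and hypoxia genes, and Atg7 the only call of 28 autophagy and lysosome genes. Both shares lay near the 3.35% of all genes. Dusp2 and Mapk13 were no longer called without KO-Saline-2, KO-LPS-2 or KO-LPS-3 (adjusted p up to 0.118). Dusp16 and Id2 were no longer called without KO-Saline-2, KO-Saline-3, KO-LPS-2 or KO-LPS-3 (adjusted p up to 0.154). Cebpd and Gpi1 lost the call when any library other than KO-LPS-1 was left out (adjusted p up to 0.263). Slc40a1 and Alox5ap were no longer called without KO-Saline-3, KO-LPS-2 or KO-LPS-3 (adjusted p up to 0.144). Klf9 was no longer called without KO-LPS-2 or KO-LPS-3 (adjusted p up to 0.0846). Atg7 was no longer called without KO-Saline-1, KO-Saline-2, KO-LPS-2 or KO-LPS-3 (adjusted p up to 0.144).

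In housekeeping groups and among apoptosis regulators the share called was at or under the 3.35% of all genes. Of 70 cytosolic ribosomal protein genes 1 was called, Rpl21, with 29, 58 and 50 reads in KO-Saline against 28, 14 and 7 in KO-LPS and a fall of 1.60 ± 0.45 log2 units (adjusted p = 0.0465). Rpl21 lost the call when any library other than KO-LPS-1 was left out (adjusted p up to 0.336). Limma called 0 of 45 oxidative phosphorylation genes, where 1 was higher at an unadjusted p under 0.05, 0 of 25 heat shock genes (3 higher unadjusted), 0 of 20 apoptosis regulators (5 higher and 2 lower unadjusted), 0 of 12 cell cycle genes (2 higher and 1 lower) and 0 of 9 high mobility group genes (1 higher). Of all 9374 genes 1612 were under that unadjusted p. The apoptosis and cell cycle lists lay above that share, and the other lists below it. Without KO-LPS-1, where 11.5% of all genes were called, the lists of this paragraph held Rpl31, Ndufs8, Bak1 and Mki67 as risers and Rpl21 and Mcl1 as fallers. Each list's share was again under that of all genes. Mcl1, the survival factor of neutrophils, had 1625, 1564 and 1396 CPM in KO-Saline against 1547, 676 and 845 in KO-LPS, a difference of -0.67 ± 0.23 log2 units (adjusted p = 0.118). It was called lower once KO-LPS-1 was left out, at -1.01 ± 0.18 (adjusted p = 7.14e-05).

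The largest rises outside these groups rested mostly on KO-LPS-2 and KO-LPS-3. Pou2f2, a POU transcription factor of leukocytes, had 0, 3 and 3 reads in KO-Saline against 4, 94 and 116 in KO-LPS and rose by 4.34 ± 0.83 log2 units (adjusted p = 0.00372). Dock10, an exchange factor for small GTPases, had 2, 0 and 0 reads in KO-Saline against 5, 53 and 53 in KO-LPS, a pooled ratio of 55.8 (95% counting interval 15.1 to 466), with an adjusted p = 0.00606 by limma. Prnp, the prion protein, had 0, 0 and 0 reads in KO-Saline against 5, 30 and 35 in KO-LPS and was at least 7.49-fold higher against the floor, and Dpep2, a dipeptidase that overlaps Gm45752, had 0, 0 and 0 reads in KO-Saline against 3, 28 and 31 in KO-LPS and was at least 6.62-fold higher. In each KO-LPS-1 held a handful of reads or fewer. The secretory-pathway kinase Fam20c had 3, 0 and 0 reads in KO-Saline against 5, 74 and 71 in KO-LPS. Pou2f2, Dock10 and Dpep2 were no longer called without KO-LPS-2 or KO-LPS-3 (adjusted p up to 0.0956). Prnp and Fam20c were no longer called without KO-LPS-2 (adjusted p up to 0.0532).

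Among the largest falls, Pde3b, a phosphodiesterase, had 17, 15 and 24 reads in KO-Saline against 9, 0 and 0 in KO-LPS, Eef2k, the elongation factor kinase, which overlaps Gm15774, had 23, 29 and 46 reads in KO-Saline against 18, 1 and 0 in KO-LPS, and Peak1, a pseudokinase that overlaps Peak1os, had 43, 33 and 39 reads in KO-Saline against 12, 1 and 5 in KO-LPS. In all 3 the reads in KO-LPS-1 were fewer than in any saline library and more than in the other LPS libraries. St8sia4, which builds polysialic acid, had 273, 269 and 306 CPM in KO-Saline against 195, 32.1 and 10.7 in KO-LPS and fell by 2.74 ± 0.67 log2 units (adjusted p = 0.0179). Cd101, a surface protein of mature neutrophils, had 220.5, 271 and 328 CPM in KO-Saline against 216, 14.8 and 21.4 in KO-LPS and fell by 2.66 ± 0.59 log2 units (adjusted p = 0.00932). Btbd10 differed from these, with 11, 13 and 15 reads in KO-Saline against 0, 3 and 0 in KO-LPS, KO-LPS-1 being as low as the other LPS libraries. Pde3b, Eef2k and St8sia4 lost the call when any library other than KO-LPS-1 was left out (adjusted p up to 0.218). Peak1 was no longer called without KO-LPS-2 (adjusted p up to 0.0771). Cd101 was no longer called without KO-Saline-2, KO-Saline-3, KO-LPS-2 or KO-LPS-3 (adjusted p up to 0.129). Btbd10 was no longer called without KO-Saline-1, KO-Saline-2, KO-Saline-3 or KO-LPS-3 (adjusted p up to 0.155).

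How far KO-LPS-1 had moved was not the same for all genes. For each of the 1076 genes called without that library, its position was set on a line from the mean of KO-Saline, at 0, to the mean of KO-LPS-2 and KO-LPS-3, at 1, on the log2 scale. The median position was 0.15 (quartiles -0.06 and 0.43). Of these genes 59.6% lay under 0.25 and 7.9% over 0.75. Genes that rose had a median position of 0.29 and genes that fell 0.08. Placed in the same way by the other libraries of their own group, the WT-LPS libraries had medians of 0.98, 0.85 and 0.95. The genes were chosen for their difference in the other libraries, and the saline mean is shared, so the positions are a description with no test.

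By group, the 20 interferon-stimulated genes called without KO-LPS-1 had a median position of 0.67 in that library, 9 of them over 0.75 and 2 under 0.25. Slfn4 stood at 0.80, Irf7 at 0.70, Ifit2 at 0.96 and Nos2, which is not on that list, at 0.68. The 16 specific granule genes had a median of 0.13, 13 of them under 0.25, with Lcn2 at 0.16 and Chil3 at 0.15. The 9 immediate-early factors had a median of -0.02, 8 of them under 0.25, and Csf3r stood at 0.02. In the WT-LPS libraries the medians of the same groups were 0.85 to 1.02 for interferon-stimulated genes, 0.96 to 1.04 for specific granule genes and 0.92 to 1.07 for immediate-early factors. Among the genes so called, KO-LPS-1 thus held raised interferon-stimulated genes. Its specific granule genes, chemoattractant receptors (8 genes, median 0.09) and immediate-early factors lay mostly near their saline levels. Over all 22 measured immediate-early factors its mean log2 value was 7.06, above the 6.57, 6.74 and 6.46 of the KO-Saline libraries. Not all lists were either raised or near saline in KO-LPS-1. The 3 azurophil granule genes had a median of 0.39, with Ctsc at 0.93. The 4 genes of the LPS receptor list had a median of 0.32 and were split. Cd14 stood at 0.62 and Lbp at 0.84, but Irak3 at 0.03 and Ikbke at -0.07. Whether the dose, the time or the handling of that sample differed was not tested.

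**Figure D5:**
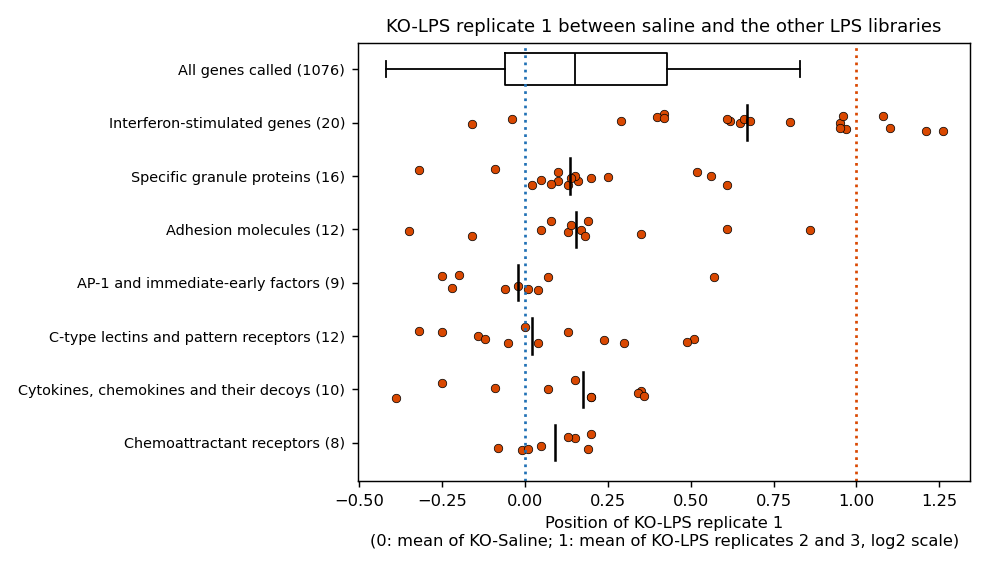
Position of KO-LPS-1 between the mean of KO-Saline (0, blue line) and the mean of KO-LPS-2 and KO-LPS-3 (1, orange line) on the log2 scale, for genes called without KO-LPS-1; the box shows the quartiles of all 1076 genes with whiskers from the 5th to the 95th percentile, points are single genes and black bars list medians. Interferon-stimulated genes centre on 0.67, specific granule genes on 0.13 and immediate-early factors on -0.02.

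Genes called only after KO-LPS-1 was left out included abundant ones. Mmp9, the gelatinase of neutrophils, had 1656, 1838 and 2559 CPM in KO-Saline against 2113, 3565 and 3478 in KO-LPS and rose by 0.83 ± 0.18 (adjusted p = 0.00129) without that library, against a difference of 0.58 ± 0.23 log2 units (adjusted p = 0.17) with it. Flna, the actin crosslinker filamin, had 1262, 1094 and 1136 CPM in KO-Saline against 1155, 2139 and 2101 in KO-LPS, with 0.87 ± 0.18 (adjusted p = 0.000649) without it and 0.58 ± 0.23 log2 units (adjusted p = 0.174) with it. Mki67, a marker of dividing cells, had 1116, 1464 and 1802 CPM in KO-Saline against 1758, 2452 and 2088 in KO-LPS, with 0.66 ± 0.19 (adjusted p = 0.0194) and 0.54 ± 0.22 log2 units (adjusted p = 0.19). In these 3 KO-LPS-1 lay inside the saline range. Only 12 of 31 cell cycle genes were measured, and Top2a, Ccnb1 and Cdk1 were not among them. Whether the Mki67 reads mark dividing cells was not tested. Lower without that library were Zyx, an adhesion-site protein that overlaps Epha1 (-0.86 ± 0.17, adjusted p = 0.000362), Grina (-1.06 ± 0.17, adjusted p = 1.76e-05), Cap1, an actin regulator that overlaps Ppt1 (-0.87 ± 0.17, adjusted p = 0.000219), Spatc1, which overlaps Mirt2 (-1.39 ± 0.19, adjusted p = 8.86e-07), and the phosphatase gene Dusp1, which overlaps Ergic1 (-0.87 ± 0.22, adjusted p = 0.00686).

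The response was set against that of the WT libraries, which share no sample with it. Both came from the same fit, with a spread per gene estimated over all groups. The overlap of calls is therefore not that of independent tests. In WT libraries 1095 genes were called (11.7%), 6.72% of all genes higher and 4.96% lower, and the WT groups did not overlap for 30.8% of genes, 16.5% higher and 14.3% lower. Of the 314 genes called in KO-labelled libraries 249 (79.3%) were called in WT in the same direction, which is 22.7% of the WT calls. Limma called 0 genes in opposite directions. Without KO-LPS-1 the shared genes numbered 627, or 58.3% of the KO-labelled calls and 57.3% of the WT calls. The test of the difference itself, the interaction of LPS with genotype, called 0 genes (0% of all) by limma. At an unadjusted p under 0.05 it gave 560 genes, and the smallest adjusted p was 0.226. The genes of smallest p included Csnk1d, a casein kinase that overlaps Gm28192, and Fkbp5, a glucocorticoid-induced chaperone. Csnk1d had 887, 866 and 1311 CPM in KO-Saline against 2132, 654 and 679.7 in KO-LPS. Fkbp5 had 45, 27 and 28 reads in KO-Saline against 6, 106 and 113 in KO-LPS, lowest in KO-LPS-1 and highest in the other LPS libraries. Without KO-LPS-1 the interaction called 3 genes (0.032% of all; 542 at an unadjusted p under 0.05). They included Csnk1d (1.57 ± 0.29 log2 units, adjusted p = 0.0327) and D630041G03Rik (-2.42 ± 0.48 log2 units, adjusted p = 0.0327), the response of KO-labelled minus that of WT libraries. For Csnk1d, KO-LPS-2 and KO-LPS-3 lay below every KO-Saline library. Its positive value is therefore a smaller fall than in WT and not a rise. Ngp rose less in KO-labelled than in WT libraries by the fitted values (2.80 and 5.89), and the difference was not called (adjusted p = 0.345, and 0.0692 without KO-LPS-1).

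Markers of other cells were few in the table, and some moved with LPS. The summed level of the 20 neutrophil markers was 25443, 24222 and 24767 CPM in KO-Saline against 27584, 32496 and 34125 in KO-LPS, higher in all LPS libraries, and 4 of them rose and Csf3r fell. For 10 of 21 monocyte and macrophage markers in the table the sum was 451, 525 and 574 CPM in KO-Saline against 560.2, 913 and 739.7 in KO-LPS, with Nr4a1 called higher and Apoe lower. Of 17 platelet markers 7 were in the table, with a sum of 1223, 1232 and 1296 CPM in KO-Saline against 1144, 903 and 750.4 in KO-LPS, and Gp1ba, a subunit of the von Willebrand receptor, fell by 1.29 ± 0.26 log2 units (adjusted p = 0.005). The platelet markers went both ways: at an unadjusted p under 0.05 limma gave 2 higher and 1 lower. Only 2 of 13 B cell markers were in the table, and Cd79a, a chain of the B cell receptor, had 11, 7 and 3 reads in KO-Saline against 13, 42 and 47 in KO-LPS and rose by 2.17 ± 0.55 log2 units (adjusted p = 0.023). The other, Bank1, was not called but was lower at an unadjusted p under 0.05 by limma. The median log2 difference of the 2 B cell markers was -0.18. Among 5 of 25 T and NK cell markers limma called 0 (0 at an unadjusted p under 0.05), with a sum of 259.8, 115 and 153 CPM in KO-Saline against 235, 128 and 105 in KO-LPS. Gp1ba was no longer called without KO-LPS-2 or KO-LPS-3 (adjusted p up to 0.0767). Cd79a was no longer called without KO-Saline-2, KO-Saline-3, KO-LPS-2 or KO-LPS-3 (adjusted p up to 0.196). Limma called 0 of 9 dendritic cell markers, 0 of 1 marker of eosinophils, basophils and mast cells, 0 of 2 erythroid markers and 0 of 3 endothelial and hepatocyte markers, of which 3 were under an unadjusted p of 0.05. Without KO-LPS-1 7 neutrophil markers rose and 3 fell, the fallers being Csf3r, Clec4d and Hdc. In that fit Ly6c2 joined the monocyte risers and Csf1r the fallers, Gp9 the platelet fallers, and of the dendritic cell markers Itgae rose and Clec9a fell. The part of these cells in the results was not tested.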

How the data were processed

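The authors deposited 1 table of log2 values for 9374 genes in 12 libraries, keyed by NCBI Gene ID. The build is mm10, per the submitters' processing notes. Which aligner and counter were run, and with which strand setting, is not given. Each deposited log2 value is that of a read count plus 0.5, scaled to library size: whole reads were recovered for 100% of values within 0.0001. Reads and CPM in the text come from these, and the log2 values were tested as deposited. Symbols came from the gene table supplied for 9372 genes, and positions from GENCODE on the same build for 9296.

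A model of 4 group means was fitted to all 12 libraries with limma 3.58.1 in R 4.3.3, with a mean-variance trend and two-sided moderated tests, Benjamini-Hochberg adjusted over 9374 genes and called at an adjusted p under 0.05. The ± values are standard errors. The model was tested on simulated data. These had the same spread for all genes and no library set apart like KO-LPS-1, so they do not cover that case. Intervals and the floor of 3 reads cover counting error only.

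Members and lists were chosen with earlier results of these data known. Genes were named by rule: Hmgb1, the 12 largest non-overlapping rises and falls above the median level, genes called without each KO-labelled library, up to 4 called members (or 2 abundant ones) per list, the 8 most abundant each way among those called after KO-LPS-1 was left out, and the 6 of smallest interaction p. Ifit1, Ifit3, Zbp1, Gbp2, Slfn5, Oas3, Ifi204, Parp9, Pglyrp1, B2m, C3, Wfdc21, Fgl2, Zfp36, Itga4, Fermt3, Il10, Il1b, Fos and Junb were given after their values were seen, as were members of lists that are named without values. Alternatives were other normalizations, filters, weights and offsets, and each library left out. The fits without KO-LPS-1 under a further alternative were chosen after seeing the data. Some of the genes counted are not reported here by name.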

Additional observations from a re-analysis of the deposited data

How the results depend on the processing

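The number of genes called in KO-labelled neutrophils, 314, ran from 32 (without KO-LPS-2) to 1076 (without KO-LPS-1) with 1 library left out in turn. It was 82 when the 6 KO-labelled libraries were fitted alone, 16 with no mean-variance trend and 904 with a weight for each library, where KO-LPS-1 had the weight 0.387. Other filters, offsets and normalizations gave 217 to 347. Without KO-LPS-1 the count of 1076 ran from 514 (without KO-LPS-2 as well) to 1107 (without WT-LPS-1 as well), with 615 without KO-LPS-3 as well. It was 527 with no trend and 893 to 1249 under the other settings. The interaction called 0 genes, 2 with voom weights (Csnk1d among them), 4 with library weights (Csnk1d, D630041G03Rik and Ltf among them) and 0 to 7 with 1 library left out: 3 without KO-LPS-1, 7 without KO-LPS-2, 6 without KO-LPS-3 and 1 without WT-LPS-2, Ttc21a. The cause of these shifts was not tested. Of the 135 genes named by rule 93 were called. Of these 23 were also called without each KO-labelled library in turn, and 89 were lost with no trend. Among the 93, no gene was called in the opposite direction in any fit. This does not cover genes that were not called, whose direction could turn.

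With the replicate number as a block, 336 genes were called and, without KO-LPS-1, 1114, and the interaction called 0. Libraries of the same number did not deviate together (r = -0.066, -0.024 and -0.022 across genes, against -0.027 to 0.05 for other pairs). With few libraries a group, low depth and KO-LPS-1 set apart, these values cannot show whether the numbers pair the samples.

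Depth sets a limit: at 11.33 reads for a gene of median level, small changes of low genes were not detectable.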
